A study of Mus musculus with 3 samples.

Results

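A set of 9 transcription factors of embryonic mesenchyme and the skeleton was followed by symbol in single-cell RNA sequencing of mouse tissue masses formed at implants that can give rise to heterotopic ossification, the growth of cartilage and bone outside the skeleton. The 9 genes, of 31053 in the files, were the paired-type homeobox genes *Prrx1* and *Prrx2*, the basic helix-loop-helix (bHLH) genes *Twist1* and *Twist2*, and the homeobox genes *Msx1*, *Msx2*, *Dlx3*, *Dlx5* and *Barx2*. They were measured in stromal cells, taken as cells in which *Col1a1*, *Col1a2*, *Col3a1*, *Dcn* and *Lum* together gave at least 1% of the unique molecular identifiers (UMIs, each counted as 1 captured RNA molecule).

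The masses were collected on day 5 from CD-1 female mice of 6 to 8 weeks that carried subcutaneous Matrigel, a basement membrane gel. Matrigel-only masses held no rhBMP2 (recombinant human bone morphogenetic protein 2). Vehicle masses held Matrigel with rhBMP2, and the mice were gavaged daily with the corn oil and DMSO carrier. Palo masses also held rhBMP2, and the mice were gavaged daily with palovarotene, a retinoic acid receptor gamma agonist, at 4 mg/kg. Each group was 1 library made from the masses of its mice, which the files do not tell apart, so differences between groups are given without replicates and without tests. By the labels the Matrigel-only mice were given nothing by mouth, so that they differed from Vehicle in both rhBMP2 and gavage, and the effects of these cannot be told apart.

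*Prrx1* and *Prrx2* encode homeodomain proteins that mark limb bud and connective tissue mesenchyme, and *Prrx1* is widely used to label skeletal progenitors. TWIST1 and TWIST2 pair with E proteins, hold mesenchyme undifferentiated and restrain the osteoblast regulator RUNX2. MSX and DLX proteins bind similar homeodomain sites and act downstream of BMP signals, with *Dlx5* known as an early BMP target in bone-forming cells, while BARX2 acts in limb mesenchyme, cartilage and muscle.

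Of the cells that passed quality limits, 2085 of 8728 were stromal in Matrigel-only, 1373 of 5478 in Vehicle and 1184 of 7297 in Palo. Their median UMIs per stromal cell were 9082, 17114 and 12955, so shares of cells with a UMI were given after each cell had been thinned to 3100 UMIs, which left out 207, 70 and 54 shallower cells. Levels are counts per 1000000 UMIs (CPM), summed over the stromal cells of a library, and intervals in parentheses are 95% intervals that cover counting error only. All 10 genes of a separate stromal list, among them *Pdgfra* and *Col5a1*, were present in each library. In the same cells the epidermal keratin gene *Krt5* and the glial gene *Sox10* were at 0 UMIs in all 3 libraries, while other genes of those lists were not, such as *Krt10* at 30.1, 16.2 and 30.0 CPM and *S100b* at 8.48, 21.3 and 3.92. Summed endothelial markers were 58.9, 6.19 and 35.4 CPM in Matrigel-only, Vehicle and Palo, lowest in Vehicle like *Prrx1* and *Barx2* below, and their part in those results was not tested. Most of this sum was *Tek* (39.1, 2.37 and 22.1 CPM) and *Kdr* (17.8, 2.54 and 11.6). Of the same list *Pecam1* stood at 0.748, 0.805 and 0.758 CPM, and *Cdh5* at 0.0998, 0.170 and 0.0632. Summed macrophage markers stood at 849, 277 and 746 CPM in Matrigel-only, Vehicle and Palo. Summed cartilage markers were 3.74 CPM in Matrigel-only, 2805 in Vehicle, and 4.93 for Palo.

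The stretches just upstream of *Prrx1* and *Twist1* are shown because both genes were lower in Vehicle than in the other libraries. They come from the RefSeq table for GRCm38.p6, are written 5′ to 3′ on the strand of the gene, and carry in capitals any match to the E-box CANNTG or the homeodomain core TAATTA. *Prrx1* lies at chr1:163245119-163313710 on the minus strand of mm10, and its window at chr1:163313711-163313900 leaves out 60 upstream bases that the annotation counts as exon. *Twist1* lies at chr12:33957671-33959829 on the plus strand, and its window is chr12:33957421-33957670.
Prrx1: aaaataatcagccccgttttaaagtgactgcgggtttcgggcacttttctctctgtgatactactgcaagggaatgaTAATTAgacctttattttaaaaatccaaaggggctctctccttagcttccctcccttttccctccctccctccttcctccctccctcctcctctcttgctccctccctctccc
Twist1: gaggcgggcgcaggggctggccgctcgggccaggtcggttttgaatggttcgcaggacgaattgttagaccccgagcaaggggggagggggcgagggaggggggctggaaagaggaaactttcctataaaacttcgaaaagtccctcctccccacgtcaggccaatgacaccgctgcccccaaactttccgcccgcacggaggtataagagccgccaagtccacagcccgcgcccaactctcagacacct
The *Prrx1* window held 1 TAATTA and no CANNTG, and the *Twist1* window held neither. Over 32851 promoter windows of 250 bases, searched on both strands, CANNTG occurred in 66.2% and TAATTA in 4.84%. The nuclear receptor half-site AGGTCA (14.0% of windows) and the SMAD element GGCGCC (9.59%) were in none of the 6 factor windows in the table, those of *Prrx1*, *Prrx2*, *Twist1*, *Twist2*, *Msx1* and *Msx2*. Matches are letters in a window and were not tested as binding sites.

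The first comparison asked which factors differed between masses with and without rhBMP2. *Dlx5* was higher in Vehicle than in Matrigel-only, while *Prrx1*, *Twist1*, *Twist2* and *Barx2* were lower and *Prrx2* lay close to its Matrigel-only level. Past 2-fold on the log2(CPM + 5) scale, 1 of 7 factors tested was higher (*Dlx5*), against a background of 3.68% of 10755 genes, and 1 was lower (*Barx2*), against 7.04%. The median log2 difference of the 7 factors was -0.74, with -0.04 over all genes tested. Genes entered this count at 5 CPM or more in either library, and this left out *Msx2* and *Dlx3*. *Twist2* had a raw log2 ratio of -1.01 and fell short of 2-fold on the scale with the pseudocount.

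The second comparison, Palo against Vehicle, asked what differed with palovarotene in masses that held rhBMP2. *Twist1*, *Twist2* and *Barx2* were more than 2-fold higher in Palo, 3 of 7 factors tested against 4.4% of 10579 genes, and *Dlx5* was more than 2-fold lower, against 3.73%. The median over the 7 factors was 0.97, and over all genes 0.01. Palo and Matrigel-only were closer to each other: 0 of 6 factors were 2-fold higher, against 0.277% of 10466 genes, and 0 were 2-fold lower, against 0.946%. All 3 comparisons use the same 3 libraries and are not independent of each other.

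**Figure D1:**
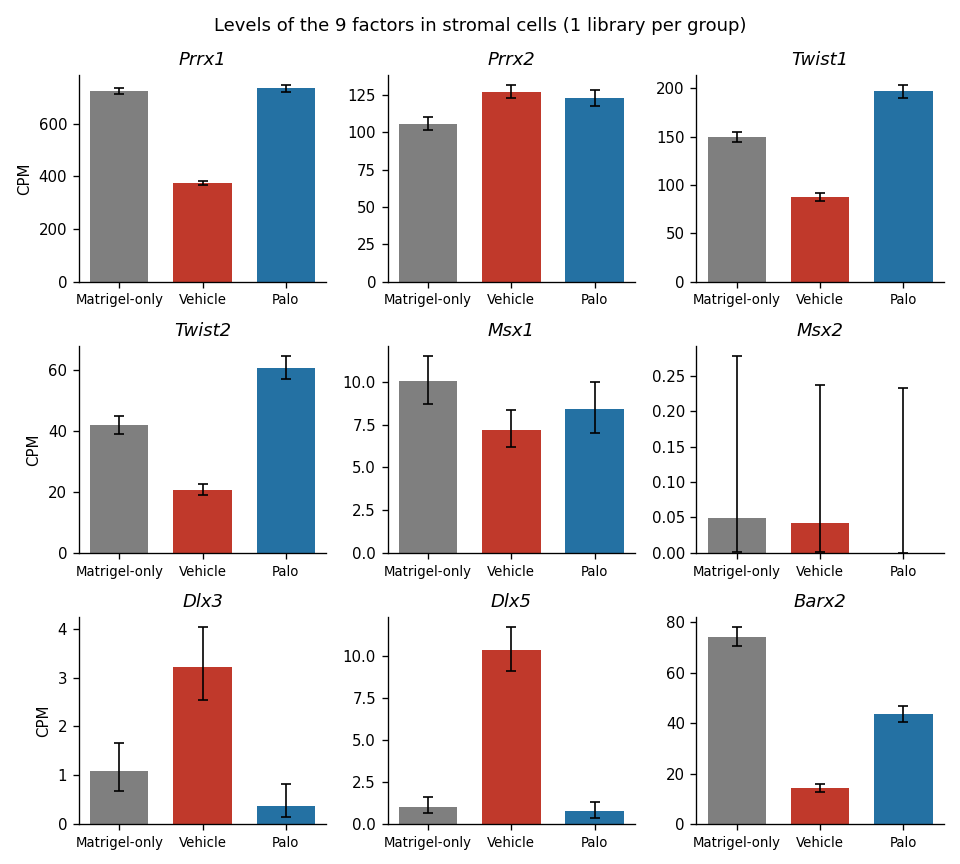
Level of each factor in stromal cells, in CPM (y axis, from 0, a separate scale for each gene), in the 3 libraries (x axis). Bars are UMIs summed over cells and lines are exact 95% Poisson intervals; *Prrx1*, *Twist1*, *Twist2* and *Barx2* were lowest in Vehicle, where *Dlx3* and *Dlx5* were highest.

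*Prrx1* stood at 725 CPM in Matrigel-only (713 to 737), 373 in Vehicle (365 to 381) and 734 in Palo (721 to 748). Matrigel-only and Palo thus lay within counting error of each other (log2 ratio 0.02, -0.02 to 0.05), and Vehicle was 1.94-fold below Matrigel-only (1.89 to 2.00). After thinning, 84.6%, 62.7% and 85.4% of stromal cells had a *Prrx1* UMI in the same order, against 93.6%, 92.9% and 97.0% without thinning. The thinned share was thus lower by 22.0 percentage points in Vehicle than in Matrigel-only, a difference that the unthinned shares of these unequally deep libraries do not show. Counts of *Prrx1* carry an annotation limit, since *Gm26523* overlaps it on the same strand.

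*Prrx2*, the close relative of *Prrx1*, did not share this pattern. It stood at 106 CPM in Matrigel-only (101 to 111), 127 in Vehicle (123 to 132) and 123 in Palo (118 to 129). Vehicle was 1.20-fold above Matrigel-only (1.14 to 1.27), and Palo could not be separated from Vehicle (log2 ratio -0.05, -0.13 to 0.03). The thinned shares were 26.0%, 31.1% and 29.3%, and the unthinned shares 48.2%, 74.5% and 59.6%.

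*Twist1* stood at 149 CPM in Matrigel-only (144 to 155), 87.3 in Vehicle (83.6 to 91.2) and 197 in Palo (190 to 204). *Twist2* gave the same order at 41.8 CPM (39.1 to 44.8), 20.8 (19.0 to 22.7) and 60.6 (56.9 to 64.6). Both were therefore lowest in Vehicle and highest in Palo, and in contrast to *Prrx1* both were above their Matrigel-only level in Palo, by log2 ratios of 0.40 (0.32 to 0.47) for *Twist1* and 0.54 (0.40 to 0.67) for *Twist2*. Palo was 2.25-fold above Vehicle for *Twist1* (2.13 to 2.38) and 2.92-fold for *Twist2* (2.62 to 3.26). The thinned shares of cells with *Twist1* were 36.6%, 23.0% and 44.0% (unthinned 65.9%, 65.4% and 81.4%), and those with *Twist2* 10.8%, 6.21% and 14.7% (unthinned 27.3%, 28.4% and 42.4%).

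*Msx1*, a BMP-responsive factor of embryonic limb and skull mesenchyme, was scarce, at 10.0 CPM in Matrigel-only (8.69 to 11.5), 7.21 in Vehicle (6.16 to 8.37) and 8.40 in Palo (7.03 to 9.96). Vehicle was 1.39-fold below Matrigel-only (1.13 to 1.72), and Palo overlapped both. The thinned shares were 3.52%, 2.13% and 2.68%, and the unthinned ones 8.06%, 9.47% and 10.3%. *Msx2* was not detectable beyond 1 UMI in Matrigel-only, 1 in Vehicle, and 0 for Palo, where a count of 0 allows up to 0.189 CPM (3 counts). The masses with rhBMP2 thus held no *Msx2* that could be measured at this depth.

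*Dlx5* stood at 1.05 CPM in Matrigel-only (21 UMIs), 10.3 in Vehicle (244 UMIs) and 0.758 in Palo (12 UMIs). Vehicle was 9.87-fold above Matrigel-only (6.32 to 16.2) and 13.6-fold above Palo (7.67 to 26.8), while Palo and Matrigel-only could not be told apart (log2 ratio -0.47, -1.62 to 0.62). The thinned shares of cells with a *Dlx5* UMI were 0.260%, 3.004% and 0.248%, and the unthinned ones 0.911%, 14.2% and 1.01%. *Dlx3*, known from hair follicle, tooth and bone, followed at a lower level with 22, 76 and 6 UMIs, which is 1.10, 3.22 and 0.379 CPM. Its Vehicle level was 2.94-fold above Matrigel-only (1.81 to 4.96) and 8.50-fold above Palo (3.73 to 23.9). The thinned shares with *Dlx3* were 0.364%, 0.955% and 0.0732%, and the unthinned ones 1.01%, 4.66% and 0.507%.

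*Barx2* stood at 74.2 CPM in Matrigel-only (70.4 to 78.0), 14.4 in Vehicle (12.9 to 16.0) and 43.6 in Palo (40.4 to 47.0). These 3 intervals do not overlap. Vehicle was 5.16-fold below Matrigel-only (4.58 to 5.82), Palo was 3.03-fold above Vehicle (2.66 to 3.46), and Palo stayed 1.70-fold below Matrigel-only (1.55 to 1.87). The thinned shares were 12.2%, 3.51% and 8.41%, and the unthinned ones 20.4%, 9.61% and 20.2%.

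**Figure D2:**
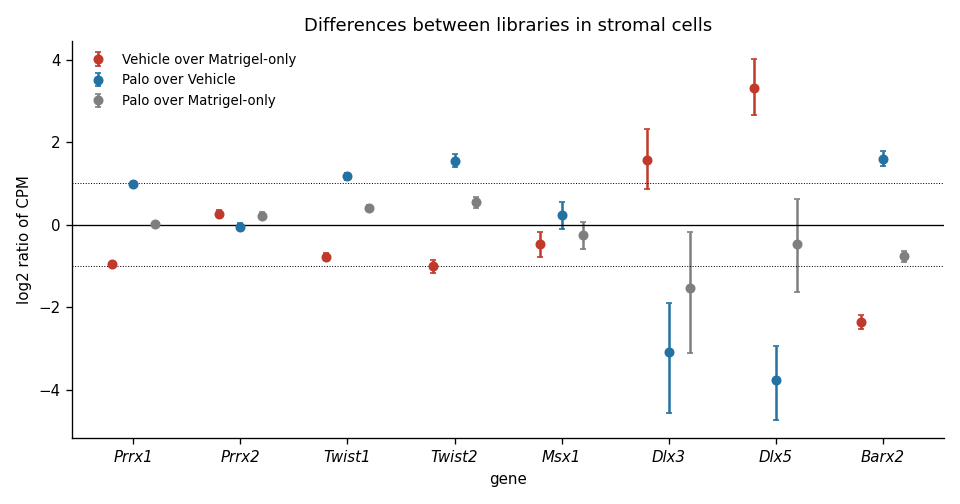
Log2 ratio of CPM in stromal cells (y axis) for 8 factors (x axis) in the 3 comparisons, with 95% conditional binomial intervals; dotted lines mark 2-fold. *Msx2*, with 1 UMI or fewer per library, is left out; *Dlx5* and *Barx2* lay on opposite sides of 0 in both comparisons with Vehicle.

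The factors were checked against macrophage cells, which should lack them and which made up 5825, 2611 and 5555 cells with median UMIs of 2985, 3393 and 4172. The level of each factor there was at most 8.43 CPM (*Prrx1* in Matrigel-only), where the thinned share was 2.13%. For *Barx2* the macrophage levels were 0.559, 0.285 and 0.113 CPM, and for *Dlx5* 0.0508, 0.0951 and 0 CPM. Stromal levels were above those in macrophage cells of the same library, with intervals that did not overlap, except for *Msx2* and for *Dlx3* in Palo, at 0.379 CPM (0.139 to 0.825) against 0 (0 to 0.140).

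Stromal cells were next split by whether they had a UMI of *Pi16*, which marks adventitial progenitor-like fibroblasts, of *Sox9*, the master regulator of chondrogenesis, or of *Acan*, the cartilage proteoglycan aggrecan. *Acan* cells, whatever else they held, numbered 1, 779 and 4 in the order Matrigel-only, Vehicle, Palo. Cells with *Pi16* alone numbered 1012, 80 and 312, those with *Pi16* and *Sox9* 140, 52 and 56, those with *Sox9* alone 353, 339 and 349, and those with none of the 3 genes 579, 123 and 463. Levels were taken where a state had at least 50 cells. A cell is placed by detection, so depth moves cells between states.

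Within *Pi16* cells, *Prrx1* stood at 676 CPM in Matrigel-only, 650 in Vehicle, and 602 for Palo. Palo was slightly below Matrigel-only (log2 ratio -0.17, -0.24 to -0.09), and Vehicle did not separate from it (-0.06, -0.18 to 0.06). In *Sox9* cells *Prrx1* was 768, 425 and 792 CPM, a log2 ratio of Vehicle over Matrigel-only of -0.85 (-0.93 to -0.78). Cells with none of the 3 genes gave 753, 461 and 762 CPM. Those with *Pi16* and *Sox9* gave 765, 620 and 678 CPM, with Vehicle below Matrigel-only (log2 ratio -0.30, -0.45 to -0.15). In Vehicle, *Prrx1* was lowest in *Acan* cells at 305 CPM (296 to 314), a state that made up 56.7% of its stromal cells. When *Sox9* cells, *Pi16* cells and cells with none of the 3 were given equal weight and *Acan* cells were left out, the log2 ratio of Vehicle over Matrigel-only went from -0.96 to -0.52.

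*Twist1* followed *Prrx1* in *Pi16* cells, *Sox9* cells and cells with none of the 3 genes. In cells with both *Pi16* and *Sox9* its Vehicle level did not separate from Matrigel-only (log2 ratio -0.12, -0.42 to 0.18). In *Pi16* cells it stood at 169, 180 and 221 CPM in Matrigel-only, Vehicle and Palo, with no separation of Vehicle from Matrigel-only (log2 ratio 0.09, -0.14 to 0.32). In *Sox9* cells it was 141, 104 and 204 CPM. The *Acan* cells of Vehicle held 69.1 CPM (64.8 to 73.6). With equal weight to the 3 states the log2 ratio of Vehicle over Matrigel-only went from -0.78 to -0.23, and that of Palo over Vehicle from 1.17 to 0.71, which is no longer 2-fold. In Palo *Twist1* was above Matrigel-only in *Pi16* cells (0.39, 0.26 to 0.52), *Sox9* cells (0.53, 0.39 to 0.68) and cells with none of the 3 genes (0.55, 0.42 to 0.69). It did not separate in cells with *Pi16* and *Sox9* (0.15, -0.14 to 0.43).

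*Twist2* was lower in Vehicle than in both other libraries in 2 of the 4 states other than *Acan*. In *Sox9* cells it stood at 43.0 CPM in Matrigel-only, 18.8 in Vehicle, and 60.9 for Palo, and in cells with none of the 3 genes at 57.5, 23.6 and 71.0. The *Acan* cells, at 19.2 CPM, did not differ from the *Sox9* cells of Vehicle beyond counting error (0.03, -0.29 to 0.36). With equal weight to the 3 states the log2 ratio of Palo over Vehicle was 1.37, against 1.55 over all stromal cells. In *Pi16* cells the Vehicle value of 26.1 CPM rested on 25 UMIs and overlapped the 29.3 CPM of Matrigel-only (log2 ratio -0.17, -0.83 to 0.43). It was below the 44.8 CPM of Palo (log2 ratio of Palo over Vehicle 0.78, 0.16 to 1.45). Cells with *Pi16* and *Sox9* gave 45.9, 48.1 and 43.9 CPM in Matrigel-only, Vehicle and Palo, which did not separate Vehicle from Matrigel-only (0.07, -0.52 to 0.64) or Palo from Vehicle (-0.13, -0.80 to 0.54).

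*Prrx2* differed between states, and between libraries within *Pi16* cells and within cells with none of the 3 genes. In Matrigel-only it was 83.8 CPM in *Pi16* cells and 151 in *Sox9* cells, a log2 ratio of 0.85 (0.69 to 1.01), and in Palo 63.4 and 159 CPM, a ratio of 1.33 (1.11 to 1.55). In Vehicle the states lay closer together, at 124 and 160 CPM (0.36, 0.09 to 0.65), and the *Pi16* cells held more of it than those of Matrigel-only (0.57, 0.27 to 0.85). The *Pi16* cells of Palo held less of it than those of Vehicle (-0.97, -1.30 to -0.63). Across the 3 libraries the *Sox9* cells were level, between 151 and 160 CPM.

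*Dlx5* in Vehicle was found in *Sox9* cells at 12.6 CPM (9.98 to 15.7, 79 UMIs) and in *Acan* cells at 10.9 CPM (9.25 to 12.8, 152 UMIs). These 2 states did not separate from each other (log2 ratio -0.21, -0.61 to 0.20). The *Pi16* cells stood lower, at 4.17 CPM (1.14 to 10.7), but this level rests on 4 UMIs. Its interval overlaps those of both states, and overlap of separate intervals does not decide whether the levels differ. *Sox9* cells without *Acan* held 2 *Dlx5* UMIs in Matrigel-only and 4 in Palo, so that the Vehicle difference was already there among cells with no *Acan* UMI (4.74, 2.84 to 7.82). *Dlx3* showed 28 UMIs in the *Sox9* cells and 42 in the *Acan* cells of Vehicle, 6 in cells with none of the 3 and 0 in both states with *Pi16*. A count of 0 allows up to 3.13 and 3.43 CPM in these 2 states. Taken singly, neither is set apart from the 3.02 CPM of *Acan* cells. The 4.47 CPM of *Sox9* cells lay above both limits, with an interval (2.97 to 6.46) that reaches below them. *Msx1* differed from the pooled picture in Vehicle cells with none of the 3 genes, where it stood at 19.8 CPM (31 UMIs) against 7.40 in the same state of Matrigel-only (44 UMIs), a log2 ratio of 1.42 (0.71 to 2.11). These 31 UMIs came from 12 of 123 cells, and the thinned shares of 3.49% and 2.38% did not separate (difference 1.10 percentage points, -1.75 to 7.26).

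**Figure D3:**
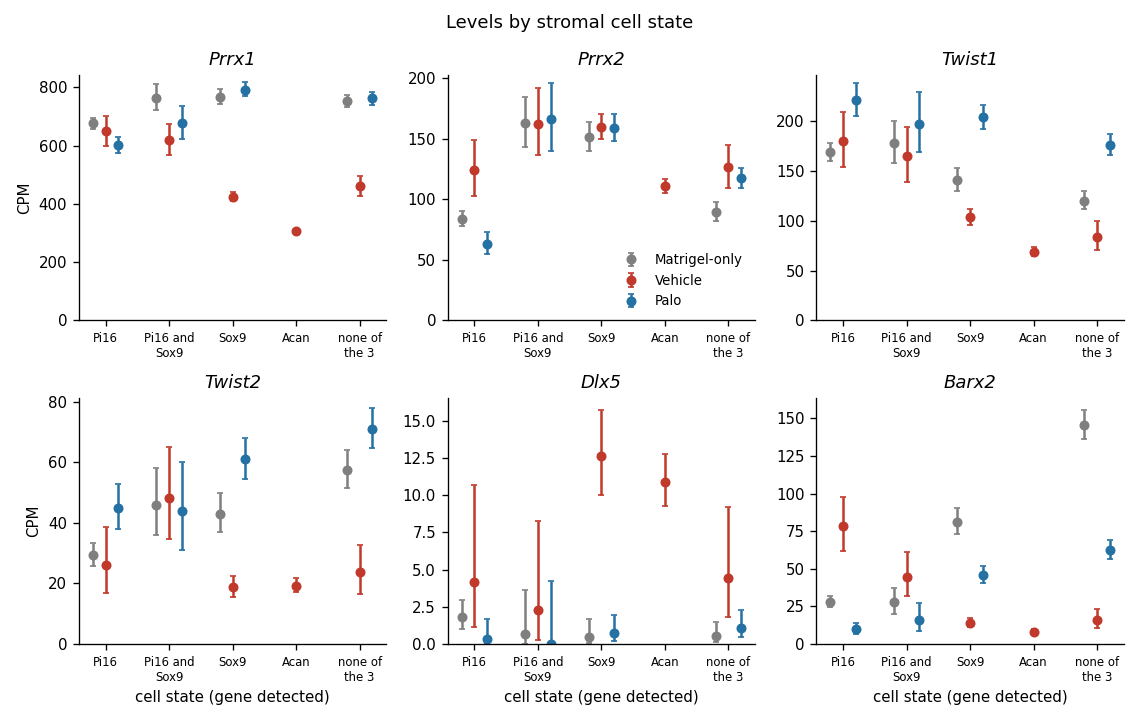
Level in CPM (y axis, from 0) of 6 factors by stromal cell state (x axis) in the 3 libraries, with exact 95% Poisson intervals; *Acan* cells reached 50 only in Vehicle. For *Prrx1* and *Twist1*, Vehicle lay close to Matrigel-only in *Pi16* cells and below it in *Sox9* cells, and *Barx2* changed its order between states.

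The *Barx2* difference turned around between states. In Matrigel-only *Barx2* was low in *Pi16* cells (27.9 CPM, 231 UMIs in 91 of 1012 cells) and high in *Sox9* cells (81.4 CPM) and in cells with none of the 3 genes (146 CPM, 867 UMIs in 235 of 579 cells). Palo had the same order at lower levels, with 9.75, 45.9 and 62.4 CPM. In Vehicle *Pi16* cells were instead the highest of these 3 states, with 78.2 CPM (75 UMIs in 25 of 80 cells), 13.7 in *Sox9* cells, 15.9 in cells with none of the 3 and 8.19 in *Acan* cells. The Vehicle *Sox9* cells and cells with none of the 3 did not separate (log2 ratio -0.22, -0.87 to 0.49). Vehicle was thus above Matrigel-only in *Pi16* cells (log2 ratio 1.49, 1.09 to 1.87) and below it in *Sox9* cells (-2.57, -2.93 to -2.22). The Vehicle *Pi16* cells were few. When states were set from counts thinned to the common depth, *Pi16* cells held 16.2 CPM in Matrigel-only, 84.8 in Vehicle, and 5.87 for Palo, so the difference was no smaller. With equal weight to the 3 states the log2 ratio of Palo over Vehicle for *Barx2* was 0.13, against 1.60 over all stromal cells. This value is a ratio of CPM averaged over the states, and no state was level. The log2 ratio was -3.00 in *Pi16* cells against 1.74 in *Sox9* cells and 1.97 in cells with none of the 3.

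The *Acan* cells of Vehicle were then divided at their median *Acan* share into 389 cells above and 390 at or below it. *Prrx1* was 242 CPM above and 367 at or below (log2 ratio -0.60, -0.69 to -0.51), *Prrx2* 88.9 and 133 (-0.58, -0.73 to -0.43), and *Twist1* 51.5 and 86.4 (-0.75, -0.94 to -0.56). *Barx2* was 3.34 CPM from 23 UMIs above and 12.9 CPM from 91 UMIs at or below (-1.96, -2.68 to -1.28). *Dlx5*, at 11.6 and 10.2 CPM, did not separate these cells (0.18, -0.30 to 0.66). Past 2-fold on the log2(CPM + 5) scale, 1.64% of 10268 genes were lower in the cells with more *Acan* and 1.08% higher.

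**Figure D4:**
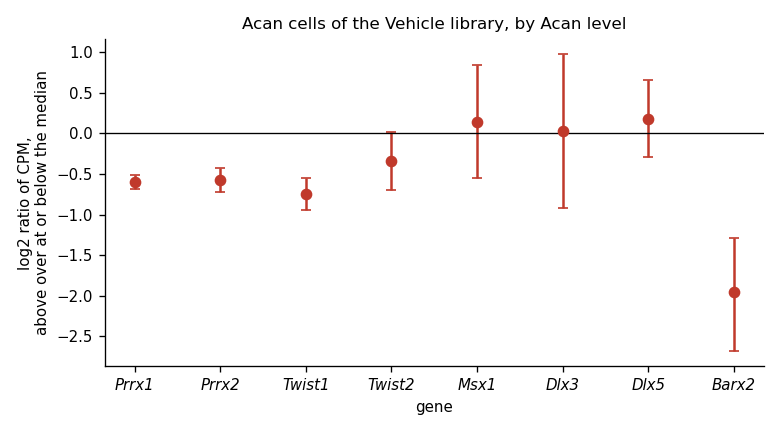
Log2 ratio of CPM between Vehicle *Acan* cells above and at or below their median *Acan* share (y axis) for 8 factors (x axis), with 95% conditional binomial intervals. *Prrx1*, *Prrx2*, *Twist1* and *Barx2* were lower in cells with more *Acan*, and the intervals of the other 4 include 0.

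Cells that held *Barx2* were set against those that did not, a contrast chosen after its values had been seen. In Matrigel-only, *Prrx2* was 39.5 CPM in the 425 cells with a *Barx2* UMI and 133 in the 1660 without (log2 ratio -1.75, -1.96 to -1.56). In Palo it was 36.6 CPM in 239 cells and 154 in 945 (-2.07, -2.32 to -1.83). In Vehicle the values were 116 CPM in 132 cells and 129 in 1241 (-0.15, -0.33 to 0.02). Cells in which a UMI is detected tend to be deeper, with medians of 12737 against 8345.5 UMIs in Matrigel-only. Among cells of at least 3100 UMIs the *Prrx2* ratio was -1.77 in Matrigel-only and -2.07 in Palo. That limit kept 421 cells with *Barx2* and 1457 without in Matrigel-only, and 238 and 892 in Palo. It left out few cells and did not make depth equal, so it cannot decide the part of depth.

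The *Prrx2* difference was present in some single states and not in others. Among *Sox9* cells *Prrx2* was 40.0 against 206 CPM in Matrigel-only and 48.7 against 198 in Palo, and among cells with none of the 3 genes 35.1 against 152 and 26.2 against 169. Among *Pi16* cells it was smaller in Matrigel-only, at 49.4 against 88.8 CPM (-0.85, -1.28 to -0.44), and did not separate in Palo, at 51.1 against 64.8 CPM (-0.34, -1.13 to 0.36). In Vehicle *Prrx2* was lower with *Barx2* among *Pi16* cells, at 78.4 against 154 CPM (-0.98, -1.63 to -0.37). It was also lower among Vehicle *Sox9* cells, at 133 against 164 CPM (-0.30, -0.60 to -0.02). Vehicle cells with none of the 3 genes did not separate (-0.03, -0.70 to 0.58). *Twist1* went the same way as *Prrx2*, with log2 ratios of -0.78 (-0.91 to -0.64) in Matrigel-only and -0.97 (-1.11 to -0.83) in Palo. *Twist2* went the other way, at 0.65 (0.44 to 0.85) and 1.33 (1.15 to 1.52), and *Prrx1* differed little, at 0.16 (0.11 to 0.21) and 0.34 (0.28 to 0.40). Over all stromal cells of Vehicle *Twist1* was higher with *Barx2* (0.31, 0.12 to 0.49), as was *Twist2* (0.39, 0.01 to 0.76). *Twist1* did not separate within Vehicle *Pi16* cells (-0.11, -0.57 to 0.35), *Sox9* cells (-0.12, -0.47 to 0.22) or cells with none of the 3 genes (0.003, -0.83 to 0.74). *Twist2* was higher within Vehicle *Pi16* cells (1.95, 0.63 to 3.46), from 18 and 7 UMIs. It did not separate within Vehicle *Sox9* cells (-0.93, -2.09 to 0.05) or cells with none of the 3 genes (-0.74, -3.09 to 0.93). Among *Sox9* cells alone *Twist2* did not separate in Matrigel-only (0.10, -0.36 to 0.55) and did in Palo (1.30, 0.97 to 1.62).

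Other genes of the lists were looked up in the same contrast. *Grem1*, which encodes a secreted BMP antagonist, was 1.20 CPM with *Barx2* and 39.0 without in Matrigel-only, and 2.89 and 86.5 in Palo. The somite homeobox gene *Meox1* was 31.4 and 154 CPM in Matrigel-only and 13.3 and 173 in Palo. In Vehicle *Grem1* was 5.65 and 22.5 CPM, and *Meox1* 8.66 and 16.2. Both genes were lower with *Barx2* among *Sox9* cells and among cells with none of the 3 genes in each library. In Vehicle this rested on few cells and UMIs. Its 38 *Sox9* cells with *Barx2* held 5 *Grem1* and 9 *Meox1* UMIs, and its 10 cells with none of the 3 genes held 0 and 2. Within *Pi16* cells *Grem1* did not separate in Matrigel-only (1.90 against 4.28 CPM) or Palo (14.2 against 17.7 CPM). There *Meox1* did not separate in Palo (31.2 against 52.5 CPM) but was lower in Matrigel-only (13.3 against 32.9 CPM). Vehicle *Pi16* cells held 0 *Grem1* UMIs with *Barx2* and 12 without. *Pi16* was 104 against 1206 CPM in Matrigel-only and 61.7 against 455 in Palo, but 273 against 68.7 in Vehicle. Since *Pi16* defined the states, these *Pi16* values restate the split by state and add no support to it. Among *Pi16* cells alone the Vehicle difference turned, with 1035 CPM in 25 cells with *Barx2* and 1471 in 55 without. In Vehicle 9 of 9 cartilage markers tested were more than 2-fold lower in cells with *Barx2*, against 0.895% of 10395 genes, and 7 of 8 progenitor markers were more than 2-fold higher, against 1.62%. *Cd34* was 416 CPM with *Barx2* and 74.4 without. These marker counts are not independent of the *Pi16* and *Acan* states above. In Matrigel-only 0 of 8 progenitor markers were 2-fold higher and 1 was lower, against 1.51% and 4.17% of 10602 genes, and in Palo 0 and 1, against 1.84% and 4.43% of 10415 genes.

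**Figure D5:**
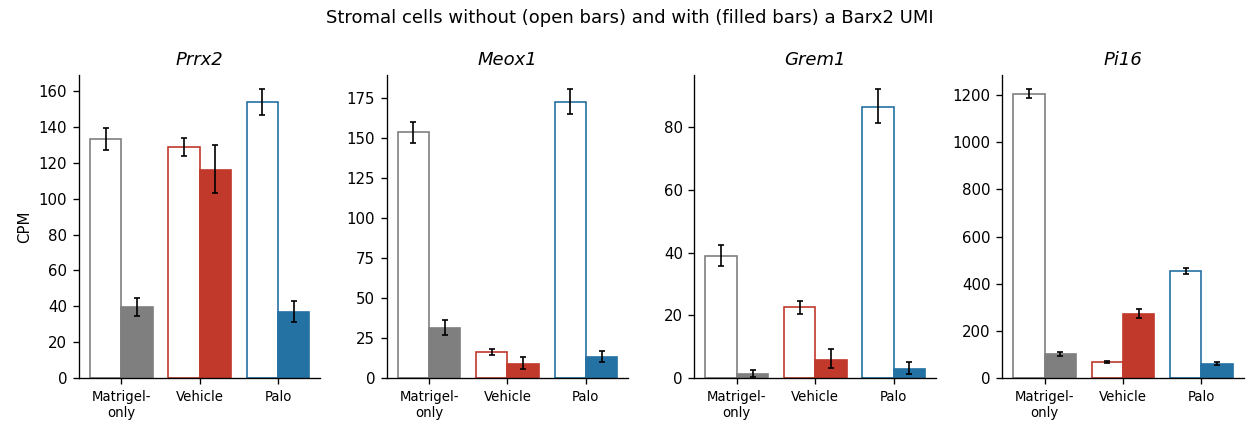
Level in CPM (y axis, from 0, a separate scale for each gene) of *Prrx2*, *Meox1*, *Grem1* and *Pi16* in stromal cells without (open) and with (filled) a *Barx2* UMI in the 3 libraries, with exact 95% Poisson intervals. The *Pi16* bars stand in the opposite order in Vehicle, and the *Prrx2* bars of Vehicle overlap.

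The 195 Vehicle cells with a *Dlx5* UMI, also a contrast chosen after its values had been seen, held *Barx2* at 4.18 CPM (17 UMIs) against 16.5 in the 1178 cells without (log2 ratio -1.98, -2.78 to -1.28). *Prrx1* was 321 and 384 CPM (-0.26, -0.34 to -0.17), while *Prrx2*, *Twist1* and *Twist2* did not separate. Of 8 progenitor markers, 4 were more than 2-fold lower with *Dlx5*, against 1.09% of 10334 genes, namely *Cd34* (23.6 and 131 CPM), *Clec3b*, *Dpp4* and *Cd55*. Of the 195 cells, 126 were *Acan* cells and 59 were *Sox9* cells. The *Barx2* and marker differences are thus not independent of the states above. The osteoblast regulator *Sp7* was 139 and 94.5 CPM (0.56, 0.42 to 0.69), and 0 of 9 skeletal genes were 2-fold higher, against 0.252%.

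Genes related to these factors by family, by partnership, by BMP signalling or by skeletal differentiation were counted in 6 lists of 92 genes in all. In Vehicle against Matrigel-only, 16 of 54 tested were at least 2-fold higher, against 3.68% of all genes, and 5 lower, against 7.04%, which is near the background. In Palo against Vehicle 4 of 55 were higher, against 4.4%, and 11 lower, against 3.73%. In Palo against Matrigel-only 1 of 49 was higher, against 0.277%, and 0 lower, against 0.946%. Skeletal genes made up 8 of the 16 and 8 of the 11: 8 of 9 tested were higher in Vehicle than in Matrigel-only, with a list median log2 ratio of 2.15, and 8 of 9 were lower in Palo than in Vehicle, with a median of -2.40. *Sp7* was at 1.30, 102 and 1.58 CPM in Matrigel-only, Vehicle and Palo, the phosphatase gene *Alpl* at 0.549, 91.3 and 0.126, and *Sox6*, a partner of *Sox9*, at 0.0998, 35.9 and 0.0632. *Ibsp*, which encodes bone sialoprotein, gave 18040 UMIs in Vehicle and 0 in both other libraries.

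Of the E protein and ID genes, which pair with or block bHLH factors such as the TWIST proteins, 2 of 6 tested were 2-fold higher in Vehicle than in Matrigel-only, against 3.68% of all genes. These were the direct BMP targets *Id1* (101 against 42.5 CPM) and *Id3* (642 against 241 CPM), and in Palo they stood at 51.3 and 326 CPM. Of 16 other homeobox genes tested, 1 was higher in Vehicle, against 3.68%, and 2 were lower, against 7.04%, counts too small to set apart from the background. *Meox1* among the latter was at 118 CPM in Matrigel-only, 15.4 in Vehicle, and 131 for Palo. In Palo against Matrigel-only the single gene past 2-fold was *Grem1*, at 64.6 against 28.0 CPM.

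Likeness to other genes was described over the 13 combinations of state and library with at least 50 cells, by Pearson's r of log2(CPM + 5) across about 8016 genes. These points share libraries and depth, and r is a description. *Dlx5* was most like *Ibsp* (0.966), *Klk4* (0.963) and *Alpl* (0.927). *Barx2* was most like *Hmcn1* (0.966), which encodes the matrix protein hemicentin, *Cdh13* (0.907) and *Sgpl1* (0.880). *Prrx1* was most like *Capns1* (0.969), *Pcdh7* (0.968) and *Trim8* (0.967), and *Twist1* like *C1qtnf2* (0.957), the collagenase gene *Ctsk* (0.950) and *Wipi1* (0.943). For *Twist2* the first was the WNT inhibitor gene *Dkk2* (0.927), then *Slc30a4* (0.906) and *Nov* (0.889), and for *Prrx2* *Tmem176b* (0.897), *Drg1* (0.854) and *Layn* (0.853). *Dlx3* was most like *Pck2* (0.949), *Kif21b* (0.923) and *Xpot* (0.921). The closest genes to *Msx1* reached 0.780 (*Tspyl2*), 0.778 (*Ripk1*) and 0.776 (*Vkorc1l1*), and *Msx2* was too scarce for a pattern. *Dlx3*, *Dlx5* and *Msx1* stayed under 20 CPM in all 13 combinations, so their r values rest on low counts. *Dlx3* spanned only 0.921 on this log2 scale. Among the factors, *Prrx1* had an r of 0.82 with *Twist2* and 0.07 with *Prrx2*, and *Dlx5* one of -0.88 with *Prrx1*.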

How the data were processed

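The authors deposited 1 matrix per library of whole UMI counts per gene and barcode, made with Cell Ranger 3.0.2 on mm10 and not normalized. Cells with 200 to 6000 genes and at most 5% mitochondrial UMIs were kept, the limits of the study, and the upper gene limit was the treatment of doublets. Shared barcodes numbered 30 to 40 per library. The 9 factors and all gene lists were chosen with earlier results of these data known. UMIs were summed over stromal cells, scaled to CPM and compared as ratios with conditional binomial intervals. Counts of genes past 2-fold used a pseudocount of 5 CPM and a minimum of 5 CPM in either library. Shares were thinned hypergeometrically to 3100 UMIs, the lowest 10th percentile of stromal depth over the libraries, rounded down, with exact binomial intervals. Total UMIs per library were 44252421 to 46901673. The text names all 9 factors, at most 4 related genes per comparison with the largest differences among those past 2-fold at 20 CPM or more, and the 3 genes most like each factor. Further related genes and progenitor markers, and the contrasts of cells with and without *Barx2* or *Dlx5*, were named after their values had been seen. Scripts were tested on simulated data. Alternatives covered the stromal and quality limits, pseudocount, scaling (TMM from edgeR 4.0.16), depth and states. Coordinates are from GENCODE vM21. Python 3.11.15, numpy 2.4.6 and scipy 1.17.1 were used. *Prrx1*, *Twist2* and *Barx2* have antisense neighbours, and the strand setting of the counting is not given in the sources used here.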

Additional observations from a re-analysis of the deposited data

Results flagged for a closer look

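The *Barx2* difference between Vehicle and the other libraries had opposite signs in different stromal states, and the difference between states was not tested. As log2 ratios of Vehicle over Matrigel-only it was 1.49 in *Pi16* cells and 0.68 in cells with *Pi16* and *Sox9*, but -2.57 in *Sox9* cells and -3.19 in cells with none of the 3 genes. As Palo over Vehicle it was -3.00 and -1.47 in the first 2 states, and 1.74 and 1.97 in the others. The summed macrophage markers of Vehicle were 569 CPM in *Pi16* cells and 174 in *Sox9* cells, and their part in the result was not tested, while *Barx2* in macrophage cells was at most 0.559 CPM. *Prrx2* in Palo over Matrigel-only also had opposite signs, with -0.40 in *Pi16* cells and 0.39 in cells with none of the 3 genes, likewise untested.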

How the results depend on the processing

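Over 13 alternatives, the counts of factors past 2-fold moved by more than 1.5 times in 2 of 78 cases, both with equal weight to 3 states, where 1 factor rather than 3 was higher in Palo than in Vehicle (*Twist2*) and 1 rather than 0 was lower in Palo than in Matrigel-only (*Barx2*). This weighting leaves out *Acan* cells by construction. Of 264 log2 ratios of factors, 35 left the counting interval of the reported value and 0 of those past 2-fold changed sign. Factor levels by state were less stable, and 56 of 189 left their counting interval when states were set otherwise. Of 81 share differences, 44 left theirs, and 3 whose interval excluded 0 changed sign. Without thinning the share differences of Vehicle minus Matrigel-only turned to 1.11 percentage points for *Twist2* and 1.41 for *Msx1*, where Vehicle is the deeper library, and at 2 UMIs or more that of *Dlx3* to -0.00144. Counts over all genes moved by more than 1.5 times in 8 of 78 cases: with a pseudocount of 1 CPM, 708 genes rather than 466 were higher in Palo than in Vehicle, and 68 rather than 29 were higher and 218 rather than 99 lower in Palo than in Matrigel-only. With equal weight to 3 states 157 rather than 396 were higher and 211 rather than 757 lower in Vehicle than in Matrigel-only, 145 rather than 466 higher and 206 rather than 395 lower in Palo than in Vehicle, and 18 rather than 29 higher in Palo than in Matrigel-only. A smaller pseudocount lets scarce genes pass by construction. No paired analysis was possible because each group is 1 library, and no library could be left out. Depth limits *Msx2*, *Dlx3* and *Msx1*, and the 80 *Pi16* cells of Vehicle limit its levels there. The contrasts of cells with and without *Barx2* had alternatives added after seeing the data. Of 75 such log2 ratios, 37 left the counting interval of the reported value and 1 of those past 2-fold changed sign. That was *Pi16* within *Pi16* cells of Vehicle, where its level was lower in cells with *Barx2* (log2 ratio -0.51) rather than higher.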
